A study of Mus musculus with 282 samples.

Results

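Hcrt and Pmch encode the neuropeptide precursors of 2 neuron populations that lie mainly in the lateral hypothalamus. Their rows were found by gene name, which gave 2 of 14079 genes and 4 of 51024 transcripts, 1 for Hcrt and 3 for Pmch. The table held 282 libraries of the whole hypothalamus of male mice, all fed a high fat, high sugar diet. Each mouse had 1 mRNA library that kept no strand. Levels were in FPKM, the number of fragments scaled to transcript length and library depth, with the scaling between mice done by the authors. The mice came from 99 strains of the Hybrid Mouse Diversity Panel, which joins classical inbred strains with recombinant inbred strains, each bred to homozygosity from a cross of 2 inbred parents. There were 25 classical inbred strains, 43 BXD strains (C57BL/6J with DBA/2J), 18 AXB/BXA strains (C57BL/6J with A/J), 6 BXH strains (C57BL/6J with C3H/HeJ) and 7 CXB strains (C57BL/6J with BALB/cJ). Sex and diet were shared by every mouse, the labels gave no age, and strain was the sole difference between groups that the labels gave. Libraries of some strains also differed in their share of transcripts at 0 and in markers of neighbouring tissue, as given below. The strain was unambiguous for 280 mice, with 2 or 3 mice in 97 strains and 1 mouse in each of the other two. The libraries of CXB-6/ByJ replicates 2 and 3 differed by less than the sampling noise and were counted as 1 sample through their mean, which left 281 mice. Their values had a ratio of 0.995 at the 1st and at the 99th percentile of 106301 genes, transcripts and other features, whereas in the next closest pair, BXD-9/TyJ replicates 1 and 2, the ratio ran from 0.182 to 6.07. The labels do not say whether mice of 1 strain came from separate litters, so p values measure the spread between these mice.

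Hcrt encodes prepro-orexin, which is cut into orexin-A and orexin-B, peptides that promote wakefulness, arousal and food seeking. Pmch encodes pro-melanin-concentrating hormone, and the melanin-concentrating hormone (MCH) cut from it promotes feeding and sleep. The neurons lie intermingled but are separate cells, and both kinds project widely through the brain. In a library of the whole hypothalamus, fewer cells of a type and less RNA per cell cannot be told apart.

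Hcrt lay on the minus strand of chromosome 11 (mm10, chr11:100761691-100762931) with a single known transcript of 2 exons. The stretch of coding sequence shown here holds the end of orexin-A and the whole of orexin-B, the peptides for which the measured mRNA codes (chr11:100761890-100762000, minus strand, codons 63 to 99 of 130, GENCODE M21). Capitals mark the codons of the glycine and the basic pair at which each peptide is cut and amidated, with 28 codons of orexin-B between them.
Hcrt, orexin-B stretch: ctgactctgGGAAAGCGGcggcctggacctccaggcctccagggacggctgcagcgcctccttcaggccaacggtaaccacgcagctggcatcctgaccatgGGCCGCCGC

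Pmch lay on the plus strand of chromosome 10 (mm10, chr10:88091056-88092375), and its known transcript had 3 exons. MCH stands at the end of the coding sequence of 165 codons, in the 69 spliced bases shown (chr10:88091865-88092186, plus strand, with an intron within, GENCODE M21). Capitals mark the 19 codons after the last basic pair, which encode MCH.
Pmch, MCH stretch: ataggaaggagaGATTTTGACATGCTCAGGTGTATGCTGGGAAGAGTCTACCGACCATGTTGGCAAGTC

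Parpbp, a gene on the opposite strand (chr10:88091432-88146941, GENCODE M21), covers 435 of the 749 exon bases of Pmch with its own exons. Without strand, reads of Pmch and of Parpbp cannot be told apart in that stretch, and Parpbp itself was not analysed here. The nearest genes of the table were Rab5c and Ghdc for Hcrt, with Pearson's r over strain means of 0.191 and 0.0665. For Pmch they were Igf1 and Ccdc53, with r of -0.155 and 0.0849.

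Both genes were among the more abundant of the hypothalamus. Hcrt had a mean level of 128.9 ± 54.05 FPKM (SD, n = 281 mice), with a lowest value of 44.6, a median of 120.2 and a highest of 718.003. Its mean was above that of 97.3% of genes. Pmch had a mean level of 496.2 ± 166.9 FPKM (SD, n = 281), from 263.9 to 2354.3 with a median of 475.9, above 99.7% of genes. Neither gene was at 0 in any mouse.

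The highest value of both genes came from 1 library. BXD-12/TyJ replicate 2 had 718.003 FPKM of Hcrt and 2354.3 of Pmch, against 126.8 and 143.5 FPKM of Hcrt and 444.4 and 542.7 FPKM of Pmch in its strain mates. All gene FPKM of that library summed to 2.35 times the median library, while its median gene was at 1.07 times the panel median. Without it the means were 126.8 ± 41.02 FPKM for Hcrt and 489.5 ± 124.7 FPKM for Pmch (SD). CXB-3/ByJ replicate 3 had the second highest sum, 1.37 times the median, with 263.2 FPKM of Hcrt and 1152.1 FPKM of Pmch. Results are given with both libraries, and without them where that changes a result. Another 18 libraries stood apart in their transcripts. They and BXD-12/TyJ replicate 2 listed 25.3% to 36.7% of all transcripts at 0, against a median of 9.14% and at most 20.2% in the other 262. They were all the mice of BXD-9/TyJ, BXD62, BXD70, BXD75, BXD85 and BXHA1 and BXD87 replicate 3.

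Strain means of Hcrt ran from 72.3 FPKM in BXD-6/TyJ to 329.5 in BXD-12/TyJ, a 4.56-fold range. Strain means of Pmch ran from 329.4 FPKM in C57BLKS/J to 1113.8 in BXD-12/TyJ, a 3.38-fold range. The top of both ranges rests on the library of BXD-12/TyJ replicate 2, and both ranges are narrower without it. The next highest strain for both genes was BXHB2, with means of 271.1 FPKM for Hcrt and 846.6 FPKM for Pmch. Strains next to each other in that order overlapped in their mice in 96 of 96 pairs for Hcrt and 95 of 96 for Pmch. Sorting by mean puts like strains side by side, so this overlap does not show whether levels change in steps. The overlap for other genes was not counted.

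**Figure D1:**
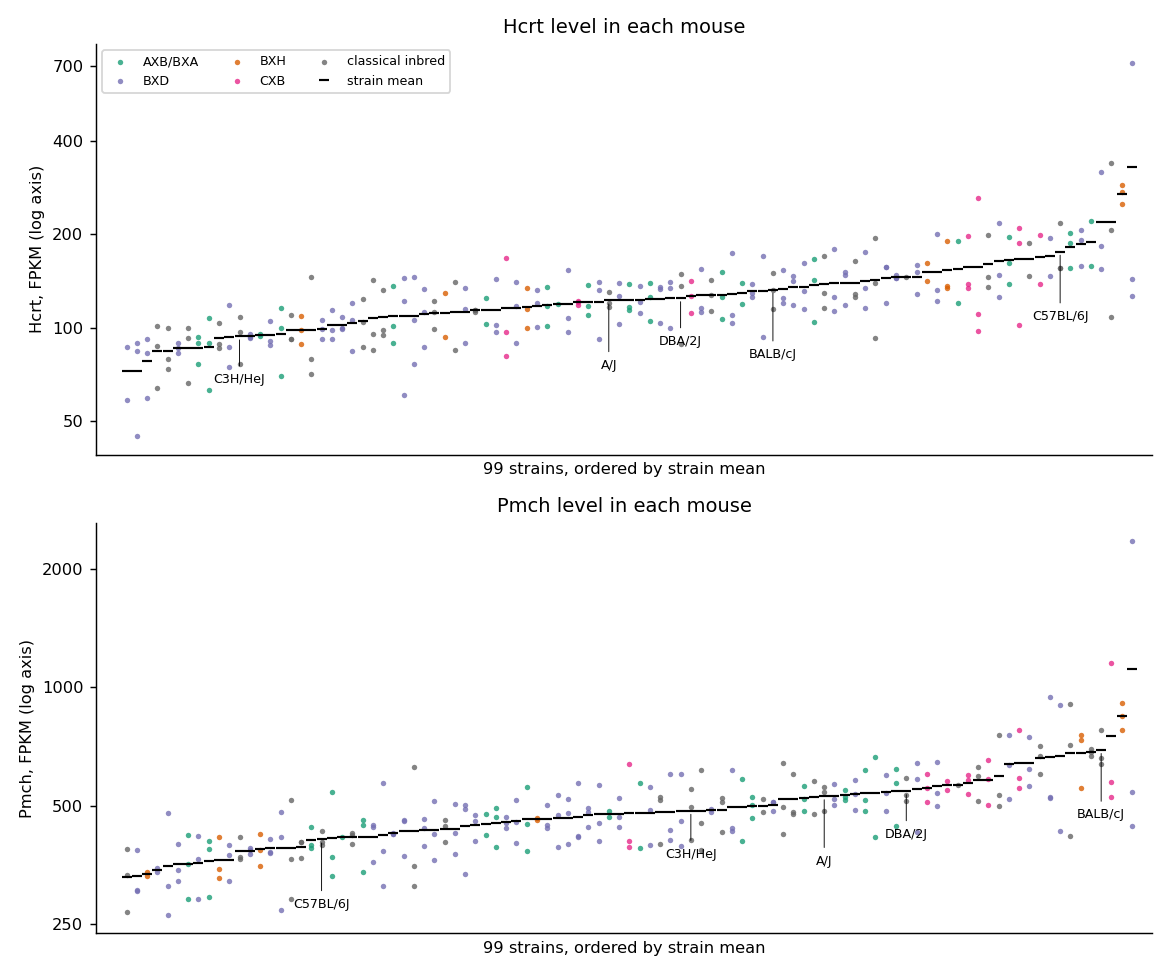
Levels of Hcrt (top) and Pmch (bottom) in FPKM on a log axis, with 1 point per mouse coloured by strain set and a black bar for the mean of each of 99 strains, in order of the mean. Neighbouring strains, sorted by mean, overlap broadly, and the single highest point in both panels is the same BXD-12/TyJ mouse.

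Levels of both genes differed among strains. On the scale of log2(FPKM + 1) the intraclass correlation of mice of 1 strain, called the strain share here, was 0.407 for Hcrt and 0.413 for Pmch. The F test of limma across strains gave an adjusted p of 4.42e-10 for Hcrt and 2.55e-10 for Pmch, with Benjamini-Hochberg adjustment over all genes. Of all genes 74.9% passed this test, so passing it does not set the pair apart. The median share over all genes was 0.221, and the share of Hcrt was above that of 79.9% of genes and that of Pmch above 80.5%. Mice of 1 strain had a log2 SD of 0.348 for Hcrt and 0.284 for Pmch. Without the BXD-12/TyJ library the shares were 0.446 and 0.476.

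Within the strain sets the picture was less even. Among the BXD strains the limma F test gave an adjusted p of 5.24e-07 for Hcrt and 8.84e-06 for Pmch, where 64% of genes were called. Among classical inbred strains it gave 0.000286 and 6.20e-05, with 47.4% called. Among BXH strains it gave 0.000199 and 5.70e-07, with 18.4% called. Among AXB/BXA strains, where 22.1% of genes were called, Hcrt passed (adjusted p = 0.0123) and Pmch did not (0.374). That Hcrt call was lost whenever 1 replicate number was left out (adjusted p = 0.0932 to 0.243). Among CXB strains neither gene passed (adjusted p = 0.510 for Hcrt and 0.474 for Pmch), with 16.4% called. Whether the sets differ in this variation was not tested.

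C57BL/6J, the parent shared by all recombinant sets, had more Hcrt and mostly less Pmch than the other parents. Hcrt was at 217.4, 155.3 and 155.5 FPKM in the 3 C57BL/6J mice. It was at 88.3, 149.2 and 136.1 FPKM in DBA/2J, at 120.3, 130.7 and 116.5 in A/J, at 76.4, 96.7 and 108.1 in C3H/HeJ and at 115.02, 132.7 and 150.2 in BALB/cJ. Every mouse of the other 4 parents was below every C57BL/6J mouse. How many of all genes separate C57BL/6J in this way was not counted. Pmch was at 429.8, 404.1 and 397.3 FPKM in C57BL/6J. It was at 532.8, 587.7 and 514.2 FPKM in DBA/2J, at 485.3, 559.4 and 541.6 in A/J, at 409.1, 550.8 and 496.6 in C3H/HeJ and at 639.6, 778.1 and 662.5 in BALB/cJ. Here 1 C3H/HeJ mouse fell among the C57BL/6J mice and all others were above them.

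Of these 8 contrasts, 2 passed the test. Hcrt was lower in C3H/HeJ than in C57BL/6J by a log2 difference of -0.90 ± 0.28 (SE, limma, adjusted p = 0.0272), where 7.56% of genes were called. Pmch was higher in BALB/cJ by 0.75 ± 0.23 (adjusted p = 0.0251), where 6.75% were called. The log2 differences of Hcrt that did not pass were -0.51 for DBA/2J, -0.50 for A/J and -0.40 for BALB/cJ (limma, adjusted p = 0.335, 0.325 and 0.519). Those of Pmch were 0.41 for DBA/2J, 0.36 for A/J and 0.23 for C3H/HeJ (0.357, 0.407 and 0.649). DBA/2J had 6.85% and A/J 7.98% of genes called. The Hcrt call was lost without replicate 1 (adjusted p = 0.457) or 2 (0.0721) and with markers of neighbouring tissue as covariates (0.0650), and the Pmch call was lost without any 1 replicate number (0.106 to 0.199).

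**Figure D2:**
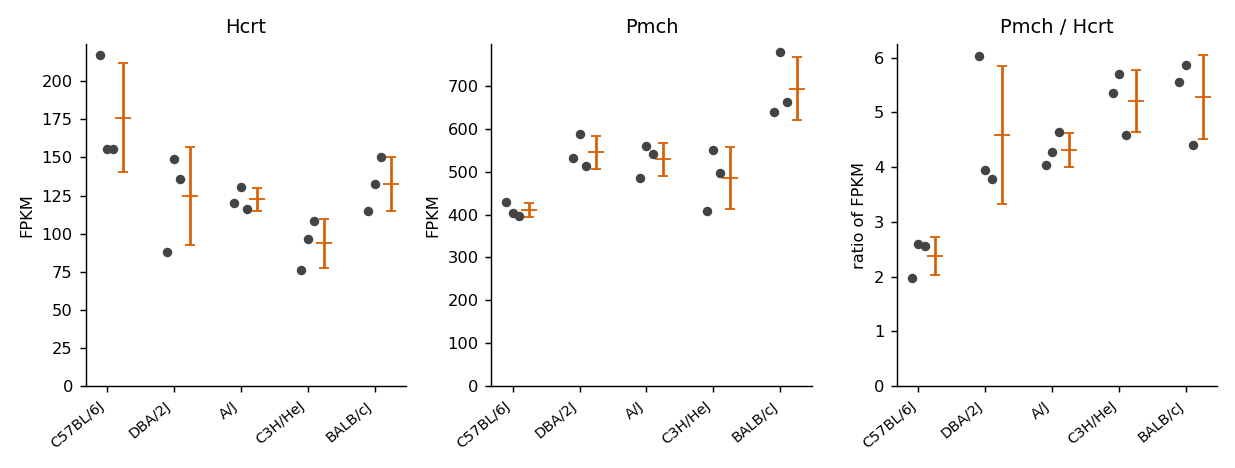
Hcrt (left), Pmch (middle) and their ratio (right) in the 5 parental strains, with 1 grey point per mouse (n = 3 per strain) and the mean ± SD in orange, in FPKM or as a ratio of FPKM. The C57BL/6J mice are the highest for Hcrt, and for the ratio all 3 lie below every mouse of the other parents.

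The ratio of Pmch to Hcrt within a mouse separated C57BL/6J from every other parent. This measure was added after the levels had been seen. It does not move with anything that scales both genes alike in a library. The ratio was 1.98, 2.60 and 2.56 in C57BL/6J, 6.03, 3.94 and 3.78 in DBA/2J and 4.03, 4.28 and 4.65 in A/J. It was 5.36, 5.70 and 4.59 in C3H/HeJ and 5.56, 5.87 and 4.41 in BALB/cJ. No C57BL/6J mouse overlapped with a mouse of another parent. How often single genes or other ratios do the same was not counted.

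Fitted as 1 more row beside all genes, the ratio was 1.89-fold higher in DBA/2J than in C57BL/6J (limma, adjusted p = 6.57e-06). It was 1.82-fold higher in A/J (2.89e-05), 2.19-fold in C3H/HeJ (1.51e-08) and 2.21-fold in BALB/cJ (9.48e-09), each with an SE of 0.17 on the log2 scale. These contrasts share the 3 C57BL/6J mice. They passed under each of the 13 alternatives tried, with the largest adjusted p, 0.0337, for DBA/2J. With the known Pmch transcript in place of the gene, the log2 differences were 0.95 for DBA/2J, 1.11 for A/J, 1.17 for C3H/HeJ and 1.22 for BALB/cJ.

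Across the panel the ratio had a strain share of 0.661 (limma F test, adjusted p = 8.43e-27), against 0.407 for Hcrt and 0.413 for Pmch. That share was above that of 94.7% of genes, each taken singly and not as a ratio. Ratios of other gene pairs were not fitted, so how usual such a share is for a ratio is not known. The difference between the shares of the ratio, Hcrt and Pmch was not tested. Strain means of the ratio ran from 2.22 in BXHA1 to 6.02 in RIIIS/J with a median of 3.94. Within sets the share was 0.692 in AXB/BXA (adjusted p = 2.40e-11), 0.569 in BXD (4.75e-14), 0.778 in BXH (3.73e-05) and 0.748 in classical inbred strains (1.14e-18). In CXB it was 0.280 and did not pass (limma, adjusted p = 0.130).

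**Figure D3:**
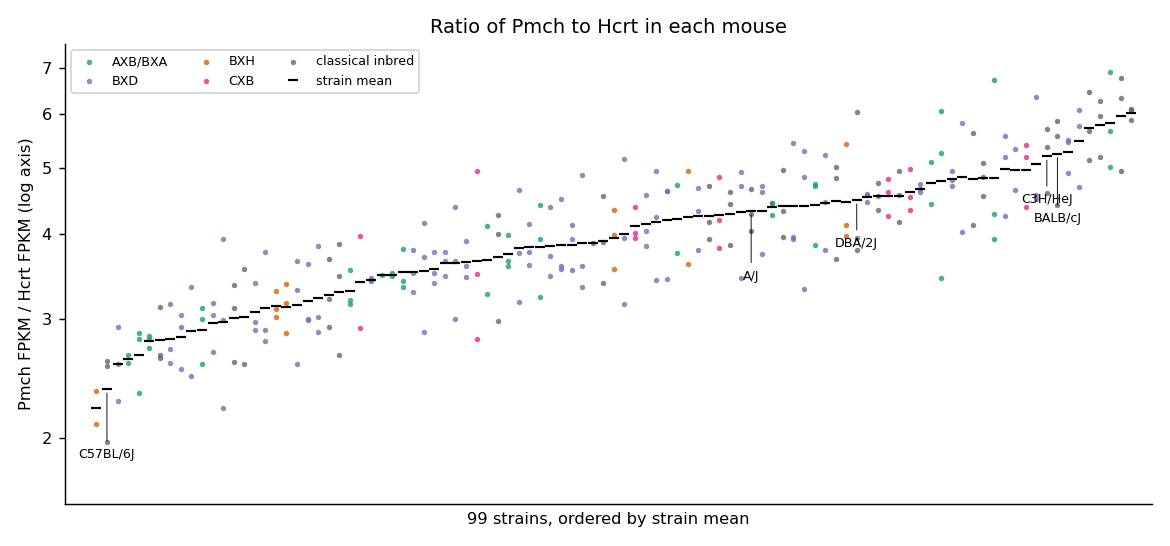
Ratio of Pmch to Hcrt FPKM on a log axis, with 1 point per mouse coloured by strain set and a black bar for the mean of each of 99 strains, in order of the mean. C57BL/6J lies at the low end beside BXHA1, while C3H/HeJ and BALB/cJ lie among the 10 highest strains.

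At the low end of the ratio, BXHA1 had 2.10 and 2.35, both from libraries with many transcripts at 0 (29.03 and 29.1%), and BXD55 had 2.91, 2.58 and 2.27. At the high end, RIIIS/J had 6.11, 5.87 and 6.08 and CE/J had 6.33, 6.78 and 4.94. RIIIS/J combined 698.5, 668.7 and 683.2 FPKM of Pmch with 114.4, 113.9 and 112.4 FPKM of Hcrt, so its Pmch was high and its Hcrt near the panel median. BXA-2/PgnJ, with ratios of 5.01, 6.91 and 5.66, combined 466.1, 527.5 and 502.8 FPKM of Pmch with 93.1, 76.3 and 88.9 FPKM of Hcrt, so there Hcrt was low. Against the mean of the other strains, 10 strains were higher and 14 lower in the ratio (limma, adjusted over all genes and strains), where 3.26% of all pairs of a gene and a strain were called higher and 3.24% lower. Of these 24 strains, 20 were called for neither gene alone. The percentages are those of single genes, and ratios of other gene pairs were not fitted.

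In the ratio most recombinant strains lay between their parents, but C57BL/6J was itself near the low end of the whole panel. Its mean ratio was 2.36, against 2.22 in BXHA1, the lowest strain, so few strains could lie below it. How many strains of other descent fall in the same ranges was not counted. Of 43 BXD strains, 34 had a mean ratio between C57BL/6J and DBA/2J, 9 were above DBA/2J and 0 below C57BL/6J. For Hcrt, 24 of them were below DBA/2J, 16 between and 3 above C57BL/6J. For Pmch, 9 were below C57BL/6J, 27 between and 7 above DBA/2J. In the AXB/BXA set the ratio was between the parents in 12 of 18 strains and above A/J in 6. It was between the parents in 7 of 7 CXB strains and 5 of 6 BXH strains, BXHA1 being below C57BL/6J. The parents of the CXB and BXH sets lie further apart in the ratio than those of the other sets, so their range takes in more strains.

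Against the mean of the other strains, Hcrt was called higher in 4 strains and lower in 3, and Pmch higher in 6 and lower in 3 (limma, adjusted over all genes and strains). Of all pairs of a gene and a strain, 3.26% were called higher and 3.24% lower, or 3.22 and 3.21 strains for the average gene, so the counts of Hcrt and the lower count of Pmch are near that average. BXHB2 stood high for both genes in all of its mice. It had 288.9, 273.8 and 250.5 FPKM of Hcrt and 914.99, 781.2 and 843.6 FPKM of Pmch. Its Hcrt was 2.22-fold higher (limma, adjusted p = 3.63e-06) and Pmch 1.78-fold higher (6.31e-05). Its libraries were low in the 5 thalamus markers (Tcf7l2, Prkcd, Tnnt1, Lef1, Ramp3), which summed to 58.2, 21.5 and 79.98 FPKM against a panel median of 215.8 and a range of 17.4 to 380.9. None of the 5 was at 0 in any mouse. With markers of thalamus, choroid plexus and anterior pituitary as covariates the log2 difference was 0.76 for Hcrt (limma, adjusted p = 0.0153) and 0.45 for Pmch (0.125), in place of 1.15 and 0.83.

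Of the other strains with high Hcrt, C57L/J spread widely. Its mice had 108.3, 206.1 and 341.4 FPKM of Hcrt and 417.6, 713.9 and 906.5 FPKM of Pmch, and their thalamus markers summed to 185.2, 151.9 and 17.4 FPKM, the last being the lowest of the panel. Its Hcrt was 1.61-fold above the other strains (limma, adjusted p = 0.0166), a call lost with the region markers (0.249) and without replicate 2 (0.169) or 3 (0.629). BXD-40/TyJ had 318.2, 182.8 and 154.7 FPKM of Hcrt and was 1.70-fold higher (0.00528), a call lost without replicate 1 (0.423). AXB-6/PgnJ was also among the 5 highest with 220.3 and 157.6 FPKM and was not called. BXD-12/TyJ was called higher for both genes (limma, adjusted p = 0.000232 for Hcrt and 0.000127 for Pmch) through its replicate 2. Without that mouse its log2 difference was 0.15 for Hcrt and 0.05 for Pmch (limma, adjusted p = 0.796 and 0.929).

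At the low end of Hcrt, BXD-6/TyJ had 86.4 and 58.2 FPKM, BXD-9/TyJ 89.01, 83.9 and 44.6 and BXD-20/TyJ 82.5, 59.3 and 92.1. They were at 0.580, 0.567 and 0.626 times the other strains (limma, adjusted p = 0.0294, 0.00240 and 0.0198). BXD-6/TyJ lost its call without any 1 replicate number (adjusted p = 0.0539 to 0.566), BXD-9/TyJ without replicate 3 (0.368), and BXD-20/TyJ without replicate 1 (0.0771) or 2 (0.327). SWR/J, with 101.3, 87.05 and 63.6 FPKM, and C57BLKS/J, with 73.3, 79.1 and 99.8, came next and were not called. The 3 libraries of BXD-9/TyJ had 25.3, 25.4 and 30.3% of transcripts at 0, and the part of this in their Hcrt level was not tested. Choroid plexus markers were high in several of these libraries. The 5 in the table (Ttr, Kl, Folr1, Clic6, Kcnj13) summed to 20.7 to 1097.6 FPKM in BXD-6/TyJ, 655.6 to 996.3 in BXD-9/TyJ 80.6 to 2101.01 in BXD-20/TyJ, 20.5 to 28.9 in SWR/J and 45.3 to 2034.9 in C57BLKS/J, against a panel median of 24.1 and a range of 7.25 to 2101.01. With the region markers as covariates the limma adjusted p was 0.0397 for BXD-6/TyJ, 0.0409 for BXD-9/TyJ and 0.0868 for BXD-20/TyJ.

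Of the 9 strains called for Pmch, 6 were not called for Hcrt. Besides BXHB2 and BXD-12/TyJ, CXB-3/ByJ had 524.9, 573.8 and 1152.1 FPKM, BALB/cJ 639.6, 778.1 and 662.5, RIIIS/J 698.5, 668.7 and 683.2 and BXH-9/TyJ 735.4, 554.9 and 756.1. They were 1.48, 1.45, 1.43 and 1.42 times the other strains (limma, adjusted p = 0.0167, 0.0248, 0.0314 and 0.0399). Without replicate 3 CXB-3/ByJ had a log2 difference of 0.22 (0.716). The lower strains were C57BLKS/J with 332.9, 267.5 and 387.8 FPKM, BXD51 with 303.8, 305.2 and 385.9 and BXD-20/TyJ with 312.02, 263.9 and 479.9. They were at 0.680, 0.688 and 0.711 times the other strains (limma, adjusted p = 0.0179, 0.0236 and 0.0478). BXHA1, with 338.2 and 332.02 FPKM, and BXD-6/TyJ, with 347.2 and 338.9, were as low but not called. Choroid plexus markers summed to 45.3 to 2034.9 FPKM in C57BLKS/J and 785.3 to 1239.6 in BXD51. With the region markers as covariates, BXD-12/TyJ and CXB-3/ByJ still passed for Pmch and the other 7 strains did not (limma, adjusted p = 0.0526 to 0.170). Each of these strains except BXHB2 also lost its call when at least 1 replicate number was left out.

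In all, 7 strains were called for Hcrt and 9 for Pmch, and 3 of them (BXHB2, BXD-12/TyJ, BXD-20/TyJ) for both and in the same direction. The strains AXB-18/PgnJ, AXB-19/PgnJ and AXB-20/PgnJ, which are sister lines, overlapped in Hcrt, while in Pmch the mice of AXB-19/PgnJ were all below those of AXB-18/PgnJ. The share of all genes in which sister lines do not overlap was not counted. Hcrt was at 136.9, 109.5 and 117.05 FPKM in AXB-18/PgnJ, 69.6, 99.8 and 115.6 in AXB-19/PgnJ and 138.5, 114.1 and 116.7 in AXB-20/PgnJ, and Pmch was at 527.1, 517.6 and 549.3 FPKM in AXB-18/PgnJ, 467.8, 392.3 and 494.4 in AXB-19/PgnJ and 615.5, 485.6 and 517.7 in AXB-20/PgnJ. None of the 3 was called for either gene.

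Hcrt and Pmch rose and fell together, both over strain means and among mice of a strain. Over 99 strain means of log2(FPKM + 1), Pearson's r was 0.544 (95% interval 0.389 to 0.670) and Spearman's rho was 0.487. Within strains, over the deviations of mice from their strain mean in the 97 strains with 2 or 3 mice, r was 0.808 (95% interval 0.751 to 0.853) and rho was 0.716. Each had a permutation p of 1e-05, the smallest that 100000 permutations can give, and over the 7 correlations computed an adjusted p of 2.33e-05 for r and 3.5e-05 for rho. Leaving out the 2 points farthest from the median of Hcrt gave r = 0.451 among strains and 0.770 within them. Leaving out the BXD-12/TyJ library gave 0.508 and 0.762, and taking out the region markers gave 0.427 and 0.788. Both values of a mouse come from 1 library and share its dissection and its scaling. Means of so few mice also carry the covariation found within strains. The r over strain means and its permutation test therefore do not isolate covariation among strains, and the 2 parts were not separated.

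**Figure D4:**
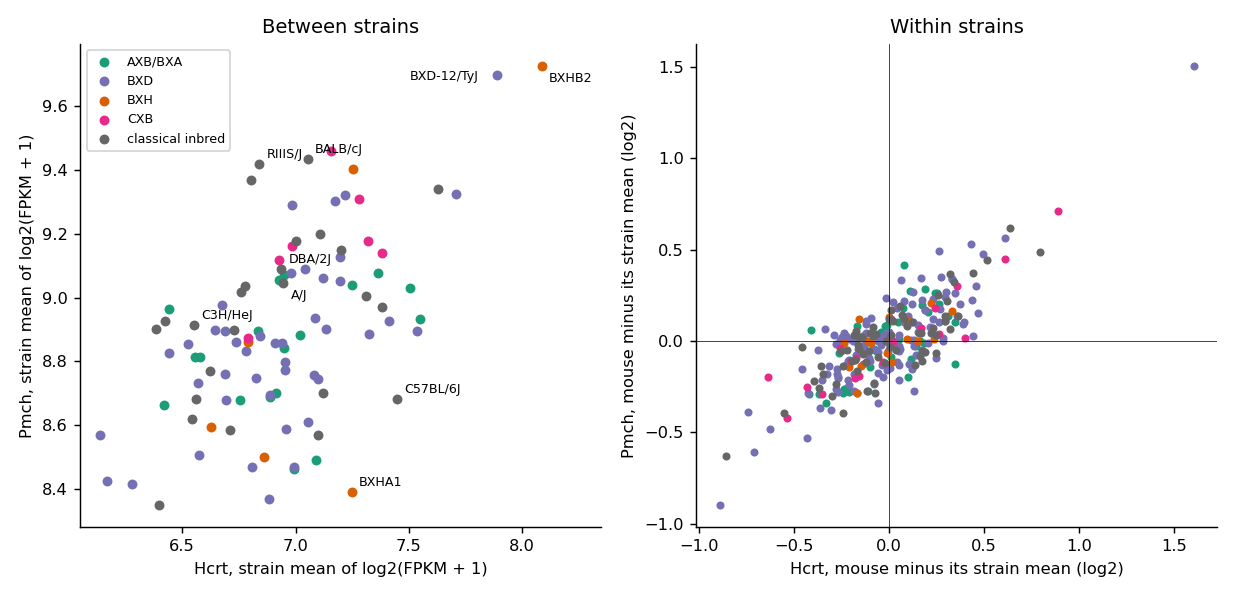
Hcrt against Pmch on the scale of log2(FPKM + 1), as means of 99 strains (left, coloured by set, with parents and extreme strains named) and as deviations of mice from their strain mean (right). Points rise together in both panels, with r = 0.544 on the left and 0.808 on the right.

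By set, r over strain means was 0.659 for BXD (rho 0.600), 0.365 for classical inbred strains (0.405), 0.317 for AXB/BXA (0.379), 0.753 for BXH (0.486) and 0.557 for CXB (0.50). The BXD value passed (permutation test, adjusted p = 2.33e-05 for r and 0.000117 for rho). The others did not, with adjusted p for r of 0.101 for classical inbred, 0.204 for AXB/BXA, 0.101 for BXH and 0.204 for CXB (permutation tests, exact for BXH and CXB), and for rho of 0.0804, 0.172, 0.356 and 0.311. Leaving out the 2 farthest strains gave r = 0.560 for BXD, 0.396 for classical inbred, 0.199 for AXB/BXA, 0.246 for BXH and -0.174 for CXB. The BXH and CXB values therefore rested on those strains.

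Among all genes, each was the closest partner of the other within strains. Of 14078 other genes none had a higher r with Hcrt within strains than Pmch, and none had a higher r with Pmch than Hcrt, with or without the BXD-12/TyJ library. After Hcrt, the next for Pmch were Tac1, the precursor of substance P (r = 0.752), 6330403K07Rik (0.697), Resp18, a protein of secretory granules (0.691), and Ptplad1 (0.678). After Pmch, the next for Hcrt were 6330403K07Rik (0.723), Ndn (0.687), Prmt2 (0.687) and a locus that joins Abtb1 and Podxl2 (0.686). Without the BXD-12/TyJ library the order changed in part. For Pmch, Tac1 (0.696), 6330403K07Rik (0.587) and Resp18 (0.565) were again next, and Pdyn (0.558) took the place of Ptplad1. For Hcrt, 6330403K07Rik (0.649) was again next, and Nxph4 (0.611) took the place of Ndn. These values describe likeness over mice that share their libraries, and carry no test.

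Over strain means the partners were in part genes of neighbouring peptide neurons. The 5 highest for Hcrt were Nxph4 (r = 0.548), Pmch (0.544), Otp, a homeodomain factor of neuroendocrine neurons (0.513), Pdyn, the dynorphin precursor that orexin neurons also make (0.506), and Gap43, a growth cone protein (0.504). For Pmch they were Cartpt, the precursor of the CART peptide found in many MCH neurons (0.574), Hcrt (0.544), Bscl2 (0.519), Crhbp, a binding protein of corticotropin-releasing hormone (0.518) and Prmt2 (0.513). Without the BXD-12/TyJ library Ntsr1 (0.461), a neurotensin receptor, took the place of Gap43 for Hcrt. For Pmch an unnamed assembled locus (0.556) then came first, followed by Cartpt (0.531), Crhbp (0.517), Hcrt (0.508) and Slmo1 (0.488), while Bscl2 and Prmt2 left the list. The lowest for Hcrt were an unnamed assembled locus (-0.540), Fzd7 (-0.531), Otx2 (-0.520), Zic5 (-0.515) and Slc17a7 (-0.505). The lowest for Pmch were Nek7 (-0.556), Myh9 (-0.506), a locus that joins Kremen1 and Znrf3 (-0.486), Tjp1 (-0.480) and Zbtb18 (-0.480).

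Genes that work with the peptides had mixed relations to them. Most of those analysed passed the strain test, as did 74.9% of all genes, so the counts that follow set none of the groups apart. Their r values are given without the BXD-12/TyJ library. The receptors were at low levels, with Hcrtr1 at 3.02 ± 0.748 FPKM, Hcrtr2 at 2.08 ± 0.438 and Mchr1 at 4.84 ± 0.730 (SD, n = 281). All 3 passed the strain test. Over strain means Hcrtr1 had r = 0.0668 and Hcrtr2 r = 0.144 with Hcrt, and Mchr1 had 0.277 with Pmch.

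Of 4 genes that orexin neurons co-express, 3 passed the strain test, near the 74.9% of all genes, and Slc17a6, a vesicular glutamate transporter found throughout the region, did not (limma, adjusted p = 0.0774). Pdyn had r = 0.498 with Hcrt over strain means and 0.508 within strains. Nptx2, a synaptic pentraxin, had -0.0797 and -0.0200. Lhx9, a LIM homeodomain factor of orexin neurons and of other diencephalic cells, had -0.382 and -0.316, and Slc17a6 -0.0854 and -0.279. Pdyn alone of these had r above 0 with Hcrt on both levels. With Pmch, Pdyn had 0.363 over strain means and 0.558 within strains, the latter above its r with Hcrt.

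The 3 genes that MCH neurons co-express all passed the strain test. Cartpt had r = 0.531 with Pmch over strain means and 0.529 within strains. Tacr3, a tachykinin receptor, had 0.213 and 0.0580, and Gad1, which makes GABA in many neurons, had 0.0845 and -0.215. With Hcrt, Cartpt had 0.420 over strain means and 0.589 within strains, the latter above its r with Pmch. Of 4 transcription factors, Foxa2 and Ebf2 were not analysed here, Lhx9 passed the strain test, and Nr6a1 did not (limma, adjusted p = 0.434).

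Of 6 genes that process precursors into peptides, 5 passed the strain test (Pcsk1, Pcsk2, Cpe, Pam, Scg5; 74.9% of all genes did) and Pcsk1n, an inhibitor of convertase 1, did not (limma, adjusted p = 0.0506). The prohormone convertases Pcsk1 and Pcsk2 had r = 0.187 and -0.230 with Hcrt and 0.0861 and -0.164 with Pmch over strain means, and within strains Pcsk2 had -0.333 with Hcrt and -0.282 with Pmch. Over strain means Cpe, a carboxypeptidase that trims the cut peptides, had -0.0733 and 0.0674. Pam, which amidates peptides such as the orexins, had r = 0.261 with Hcrt and 0.435 with Pmch over strain means. Scg5, the chaperone of convertase 2, had a strain share of 0.915, and its r was 0.0464 with Hcrt and 0.229 with Pmch. Pcsk1n had 0.549 with Hcrt and 0.203 with Pmch within strains.

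Among neighbouring peptides, Nts and Gal of the lateral area both passed the strain test, with r of 0.0942 and 0.219 with Hcrt and 0.0107 and 0.228 with Pmch over strain means. Of 3 arcuate peptides, Npy and Pomc passed and Agrp, which shares its locus with Atp6v0d1 in the table, did not (limma, adjusted p = 0.384). With Pmch, r was 0.321 for Npy, 0.345 for the Agrp locus and -0.172 for Pomc. Pomc spread widely, with a median of 24.2 FPKM and a highest value of 6850.9. The summed anterior pituitary markers also did, with 25.2 and 16461.6 FPKM, and their part in the r of Pomc was not tested. All 6 circadian genes passed (Dbp, which shares a locus with Car11, Per1, Per2, Nr1d1, Nr1d2 and Arntl). Nr1d1 and Nr1d2, repressors of the clock, had r = -0.338 and -0.350 with Hcrt and -0.142 and -0.00799 with Pmch over strain means. Arntl, a clock activator, had -0.00131 with Hcrt and -0.295 with Pmch.

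**Figure D5:**
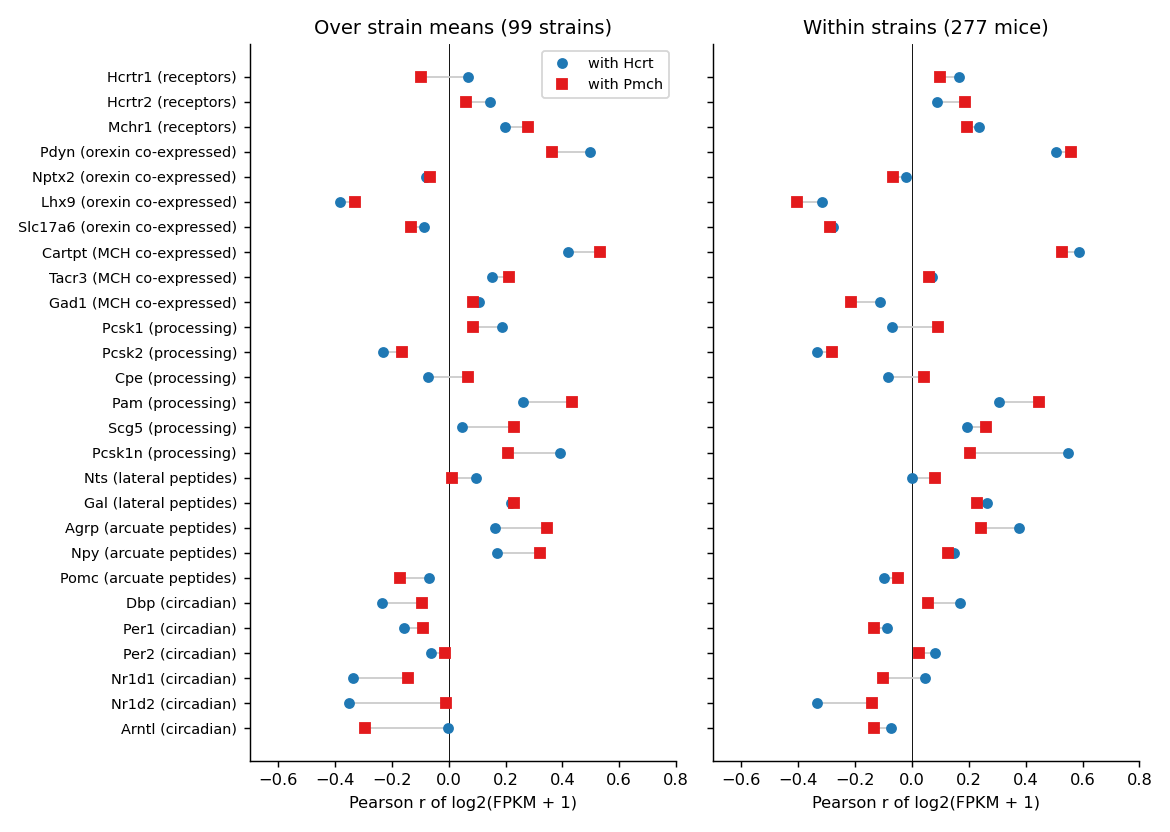
Pearson's r of related genes with Hcrt (blue circles) and with Pmch (red squares), over strain means (left) and over deviations of mice from their strain mean (right), without the BXD-12/TyJ library that stands apart. Pdyn and Cartpt lie well to the right in both panels and Lhx9 to the left.

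The known Pmch transcript held most of the level of its gene. It was at 355.03 ± 102.3 FPKM (SD, n = 281), or 72.2% ± 7.97 of the gene level. An assembled transcript, called transcript A here, was at 14.2 ± 9.22 FPKM or 2.80% of the gene. Another, transcript B, was at 2.92 ± 5.93 FPKM or 0.573%. The rest of the gene level lies in transcripts not analysed here. The single Hcrt transcript followed its gene, with a strain share of 0.407.

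The strain share was 0.554 for transcript A (limma F test over all transcripts, adjusted p = 7.64e-18), 0.420 for the known transcript (5.28e-10) and 0.186 for transcript B (0.00475), where 45.9% of transcripts were called. The call for transcript A rested on the libraries with many transcripts at 0. Without those 19 libraries its strain share was 0.0428 and it did not pass (limma, adjusted p = 0.372), whereas the known transcript had a share of 0.449 and passed (3.54e-10). All 10 mice in which transcript A was listed at 0 were among them, in the strains BXD-9/TyJ, BXD62, BXD70, BXD75, BXD85 and BXHA1. The rest of the 19 libraries were at 0.760 to 3.30 FPKM, apart from BXD-12/TyJ replicate 2 at 109.5, against a median of 14.4 and a lowest value of 2.33 in the 262 other libraries. Strain and library cannot be told apart for the 6 strains in which every library was of this kind. Mean levels of transcript A in the parents were 11.6 FPKM in C57BL/6J, 15.2 in DBA/2J, 16.1 in A/J, 14.1 in C3H/HeJ and 16.4 in BALB/cJ. Transcript levels are estimates that divide shared reads, and a 0 can be a failed estimate. Transcript B was listed at 0 in 113 of 280 mice, and its strain call was lost without replicate 1 (0.532) or 2 (0.195).

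Since the levels of the genes moved together, the 250 bases before each RefSeq start are shown (GRCm38.p6, chr11:100762932-100763181, minus strand, for Hcrt and chr10:88090822-88091071, plus strand, for Pmch). Capitals mark matches to motifs searched on both strands.
Hcrt, upstream: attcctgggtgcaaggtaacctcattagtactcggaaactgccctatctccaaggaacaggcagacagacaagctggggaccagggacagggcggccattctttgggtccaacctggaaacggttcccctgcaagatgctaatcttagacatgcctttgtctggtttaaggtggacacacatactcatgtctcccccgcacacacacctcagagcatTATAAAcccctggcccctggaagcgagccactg
Pmch, upstream: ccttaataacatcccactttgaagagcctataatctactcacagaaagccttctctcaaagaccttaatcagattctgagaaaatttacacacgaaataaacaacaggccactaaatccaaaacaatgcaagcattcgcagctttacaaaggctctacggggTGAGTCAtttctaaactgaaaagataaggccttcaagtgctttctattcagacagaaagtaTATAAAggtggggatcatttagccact

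Both windows hold the TATA motif TATAAA, 33 to 28 bases before the start of Hcrt and 27 to 22 before that of Pmch. It occurs in 12.4% of 32851 RefSeq promoters of the same length. Pmch also holds the AP-1 motif TGANTCA, 88 to 82 bases before its start, which occurs in 6.75% of promoters. The forkhead motif TGTTTAC (3.17%), the homeodomain motif TAATTA (4.84%) and the E-box CACGTG (6.02%) are in neither window. The matches do not overlap, and they describe letters, not sites in use.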

How the data were processed

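The authors mapped reads to mm10 with STAR 2.3.1, built transcript models with Cufflinks 2.2.0 and quantified genes and transcripts with Cuffnorm 2.2.1. The deposited values are FPKM, scaled between mice by the authors. They hold no counts, so the reads behind a value are not known from the deposited files and no counting interval is given.

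FPKM were taken as log2(FPKM + 1) for all 14079 genes or 51024 transcripts, with no further filter, and fitted with limma 3.58.1 in R 4.3.3, all 99 strains in 1 fit that was tested on simulated data. The F test among strains, the parents against C57BL/6J and each strain against the mean of the others were adjusted by Benjamini-Hochberg over all genes (and strains for the last), with 0.05 as threshold. The ratio of Pmch to Hcrt entered that fit as 1 more row. Correlations used 100000 permutations (Python 3.11.15), of mice within strains where mice were compared, or all permutations for BXH and CXB. Mapped reads and the uniquely mapped percentage per mouse, from the study's supplement, served only as covariates.

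Genes named are the fixed lists, the neighbours, the 5 highest and 5 lowest r over strain means and the 5 highest within strains. Strains named are the 5 highest and 5 lowest for each gene, the parents, 3 AXB sisters and those past the test, and for the ratio some strains chosen after its values were seen. Members and lists were chosen with earlier results of these data known. A mouse with conflicting strain labels entered no comparison, and 2 columns that held 1 library were averaged. Upstream sequences are from RefSeq (2 of 2 genes matched) and coding stretches from GENCODE M21.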

Additional observations from a re-analysis of the deposited data

How the results depend on the processing

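No called result reversed under the alternatives (pseudocount, normalization, covariates, filter, mice left out). In CXB, where neither gene passed, the share changed sign, from -0.615 to 0.344 for Hcrt and from -0.348 to 0.576 for Pmch, as did r without the 2 farthest strains. The strain shares of Hcrt (0.339 to 0.490) and Pmch (0.373 to 0.4996) passed throughout, as did r over strain means (0.427 to 0.679) and within strains (0.716 to 0.908). Leaving out 1 replicate number left 6421 to 8641 genes past the strain test, in place of 10547. It gave strain shares of 0.488 to 0.658 for Hcrt in AXB/BXA, 0.198 to 0.606 for Pmch in classical inbred strains (call lost without replicate 2, limma adjusted p = 0.0708) and 0.0167 to 0.322 for transcript B. It gave log2 differences from C57BL/6J of -1.09 to -0.60 for Hcrt in C3H/HeJ and 0.65 to 0.84 for Pmch in BALB/cJ. Region markers as covariates gave -0.78 for Hcrt in C3H/HeJ. A fit of the parents alone called Pmch in DBA/2J, with the same log2 difference of 0.41 (limma, adjusted p = 0.0442). With the known transcript the ratio in BXH had a share of 0.617 and was not called (limma, adjusted p = 0.0697). The causes were not tested, but leaving out replicates leaves fewer mice.

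The number of strains called was least stable. Leaving out 1 replicate number gave 2 to 3 strains higher in Hcrt (in place of 4), 1 lower each time (in place of 3), 2 to 4 higher in Pmch (in place of 6), 0 to 3 lower (in place of 3), and 4 to 11 higher and 5 to 13 lower in the ratio (in place of 10 and 14). Quantile normalization gave 5 lower in Hcrt and 6 in Pmch. Region markers gave 2 higher and 1 lower in Pmch, the latter not among the 3. Without the BXD-12/TyJ library 5 were lower in Hcrt and 6 in Pmch. Without the CXB-3/ByJ library too, 7 were lower in Hcrt, and 10 higher and 7 lower in Pmch. Without the 19 libraries with most transcripts at 0, transcript A had a share of 0.0428 and 5 strains were lower in Pmch. Counting CXB-6/ByJ replicates 2 and 3 as separate mice changed no call. The ratio, these 2 fits and the fits without both libraries were added after seeing the data. No paired analysis was possible because the labels give no replicate numbers that strains share.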

Other observations

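Markers of other hypothalamic nuclei had mostly positive r with both genes within strains, and markers of adjoining tissue had negative r, here without the BXD-12/TyJ library. The median r with Hcrt and with Pmch was 0.430 and 0.373 for the ventromedial genes Nr5a1 and Fezf1. It was 0.380 and 0.297 for 4 genes of the paraventricular and supraoptic nuclei (Avp, Oxt, Crh, Trh), 0.149 and 0.127 for the 3 arcuate peptides and 0.105 and 0.128 for Vip of the suprachiasmatic nucleus. It was -0.198 and -0.286 for 5 thalamus markers, -0.178 and -0.165 for 5 choroid plexus markers, -0.133 and -0.101 for 6 anterior pituitary markers and 0.0465 and 0.0314 for 5 blood markers. All of these genes but Agrp passed the strain test, as did 74.9% of all genes, and F5 and Pou1f1 were not analysed here. Oxt shares its locus with Mrps26 and Ptpra, so its r is that of the joint locus.

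The mouse with conflicting strain labels had 120.3 FPKM of Hcrt and 590.6 FPKM of Pmch.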
